A study of Mus musculus with 17 samples.

Results

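The Toll-like receptors were followed through B cell activation by their messenger RNA in 17 libraries of sorted mouse spleen B cells. The 10 genes were Tlr1, Tlr2, Tlr3, Tlr4, Tlr6, Tlr7, Tlr9, the receptor-like gene Cd180, the chaperone Unc93b1 and the adaptor Myd88. They were the rows of the counts table that carry these symbols, 10 of 55536 genes, and all 10 were among the 15352 genes that passed the filter on low counts. WT libraries numbered 1, 3 and 4 covered the naive stage, the activated stage and the germinal centre (GC), with 3 libraries at each. Libraries of the p52 knock-in, written p52ki, were numbered 2, 3 and 5 at the naive and activated stages and 2 and 5 in GC cells, so that group held 2. The strain, the age, the stimulus behind the activated and GC cells, the sorting gates and the structure of the knock-in allele were not given in the sources used here, and no label says that the replicates were separate animals.

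Toll-like receptors are membrane proteins of the innate immune system that recognise conserved parts of microbes. TLR1, TLR2, TLR4 and TLR6 sit at the cell surface and bind lipids, lipoproteins and lipopolysaccharide, whereas TLR3, TLR7 and TLR9 sit in endosomes and bind nucleic acids. Most of them signal through the adaptor MYD88 to NF-κB, and TLR3 signals through TICAM1. B cells are unusual among lymphocytes in carrying both antigen receptors and Toll-like receptors, and ligands of the latter make them divide. p52 is the mature product of Nfkb2 and acts in the alternative NF-κB pathway. The series title sets p52 beside the transcription factor ETS1 in GC formation, and the libraries compare gene expression between genotypes before and in the GC.

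Promoter sequence is shown for the 3 receptors that were called between genotypes in GC cells, Tlr2, Tlr9 and Cd180, a choice made after their values were seen. Of the 10 genes, 7 had entries in the RefSeq promoter table of build GRCm38.p6, with 10 windows of 250 bases before to 50 bases after a start; Tlr4, Tlr7 and Unc93b1 were not among them. The stretches below end before the first start in either RefSeq or GENCODE M21 and run 5′ to 3′ on the strand of the gene. Capitals mark the κB letters GGGNNNNNCC or the ETS letters GGAAGT, each searched on both strands. Tlr2 is read on the minus strand at chr3:83841768-83841858, Tlr9 on the plus strand at chr9:106222348-106222597 and Cd180 on the plus strand at chr13:102693297-102693546.
Tlr2 promoter: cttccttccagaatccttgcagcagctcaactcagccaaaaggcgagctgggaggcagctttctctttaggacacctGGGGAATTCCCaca
Tlr9 promoter: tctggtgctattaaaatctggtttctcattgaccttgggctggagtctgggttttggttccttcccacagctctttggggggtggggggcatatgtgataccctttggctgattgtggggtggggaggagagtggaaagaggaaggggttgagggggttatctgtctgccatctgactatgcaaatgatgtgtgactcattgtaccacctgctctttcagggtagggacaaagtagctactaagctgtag
Cd180 promoter: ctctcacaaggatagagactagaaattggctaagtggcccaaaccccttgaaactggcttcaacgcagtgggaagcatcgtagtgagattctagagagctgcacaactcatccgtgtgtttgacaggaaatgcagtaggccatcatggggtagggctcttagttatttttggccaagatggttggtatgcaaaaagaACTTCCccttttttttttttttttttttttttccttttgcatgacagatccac
The Tlr2 stretch held overlapping κB matches on both strands that began 173 and 172 bases before the RefSeq start, and further κB and ETS matches of its window lay closer to or past the start. Cd180 held 1 ETS match 53 bases before the start and Tlr9 held 1 ETS match 11 bases past it, outside the printed letters. Neither the Tlr9 window nor the Cd180 windows held the κB letters. Of the 10 windows of these 7 genes, 3 held a κB match and 8 an ETS match, while 50.8% of all 32851 windows held the κB letters and 23.8% the ETS letters. The Cd180 windows overlap and share 1 ETS match, which counts in each. By gene, 3 of 7 held a κB match and 6 of 7 an ETS match. These are matches of letters and no binding was measured.

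Library totals ran from 4067281 to 10036347 counts. Genes with at least 1 count numbered 16745 to 19672 in 14 libraries and 11232 to 13044 in the other 3, which were WT GC library 3 and both p52ki GC libraries. Values are given as CPM, counts scaled to a common library total with TMM factors, with SD over libraries. The B cell markers Cd79a, Cd79b and Ms4a1 were high in every library, at 1987 to 6398 CPM, 2135 to 5205 CPM and 2597 to 6859 CPM. The 6 GC markers summed to between 1619 and 2292 CPM in WT GC libraries, to 713 and 1089 CPM in the p52ki GC libraries and to at most 164 CPM elsewhere. The 5 markers of naive follicular cells summed to 1320 and 1456 CPM in p52ki GC libraries and to 445 to 675 CPM in WT GC libraries. The part of these marker differences in the results below was not tested.

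The sparse libraries matter for the receptors because most of these genes are low. Among genes at 1 to 5 CPM in the mean of WT GC libraries 1 and 4, the range that holds Tlr2, Tlr3 and Tlr9, 59.4% had no count in WT GC library 3, 55% had none in p52ki GC library 2 and 43.2% none in p52ki GC library 5. In both p52ki GC libraries at once, 31.7% of these genes had no count. At 5 to 10 CPM, the range of Tlr7, 13.1% had no count in both. The share was 5.14% at 10 to 20 CPM, the range of Tlr6, and 0.905% at 20 to 50 CPM, the range of Tlr4. No gene above 50 CPM was without a count in both, which covers Tlr1, Myd88, Cd180 and Unc93b1. A value in a single sparse library could still be low. Myd88 averaged 83.4 CPM in WT GC libraries 1 and 4. It had 5.09 CPM in WT GC library 3, 3.63 CPM in p52ki GC library 2 and 66.3 CPM in p52ki GC library 5. In these bulk libraries fewer cells of a type and less RNA per cell cannot be told apart.

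**Figure D1:**
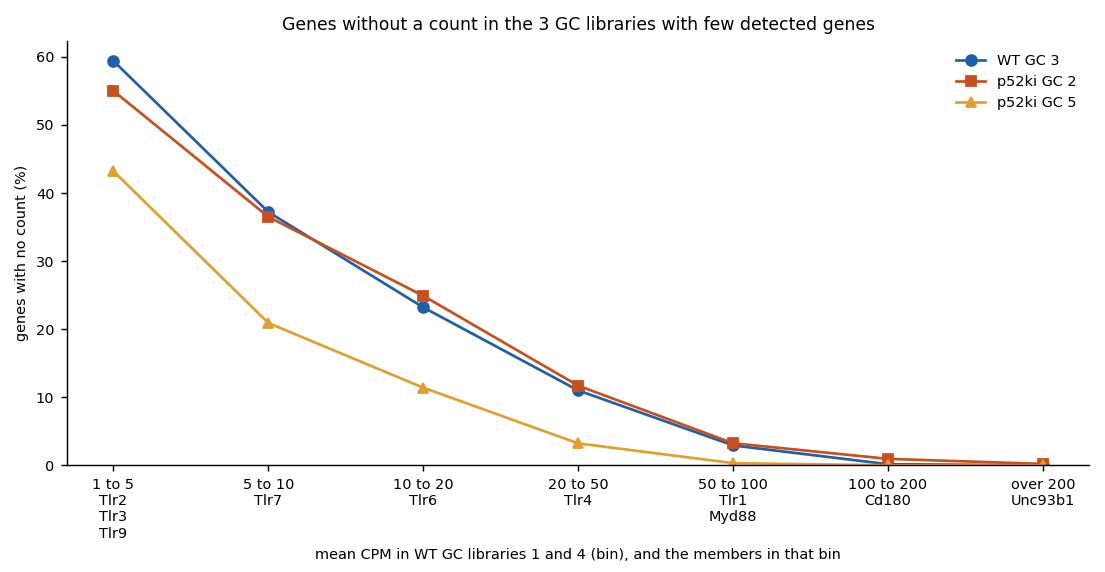
Share of genes with no count (percent, y axis) in the sparse GC libraries, by the mean level of the gene in WT GC libraries 1 and 4 (CPM classes, x axis), with the receptor genes written at their class and 1 line per library. In WT GC library 3 the share runs from 59.4% in the lowest class to 0 in the highest.

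In naive cells Unc93b1, Tlr1, Cd180 and Myd88 led the 10 genes, and Tlr3, Tlr6 and Tlr9 were the lowest. Per kilobase of annotated exon, the WT naive level of Unc93b1 was 199.7 ± 4.31 CPM per kb (SD, n = 3). UNC93B1 carries the nucleic acid sensing receptors from the endoplasmic reticulum to endosomes, and its gene lies at chr19:3935186-3949340. Next came Tlr1 at 45.2 ± 3.92, Cd180 at 32.9 ± 0.822 and Myd88 at 23.7 ± 1.75 CPM per kb, whose libraries did not overlap each other. Tlr7 followed at 15.99 ± 2.21 CPM per kb and Tlr4 at 7.74 ± 0.296 CPM per kb. Tlr7, the receptor for single-stranded RNA, was thus the highest endosomal receptor.

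The lowest 3 receptors of WT naive cells were not separated by their libraries. Tlr6 averaged 1.97 CPM per kb with a range of 1.495 to 2.21, Tlr9 1.54 with a range of 1.13 to 1.83, and Tlr3 1.38 with a range of 1.13 to 1.68. Tlr2 stood above them at 4.56 ± 0.853 CPM per kb. The order in p52ki naive cells differed only in the lowest places, where Tlr3 averaged 1.87 and Tlr9 1.35 CPM per kb with overlapping ranges. TLR9 binds DNA rich in unmethylated CpG and is known to be active in B cells; receptor protein was not measured.

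**Figure D2:**
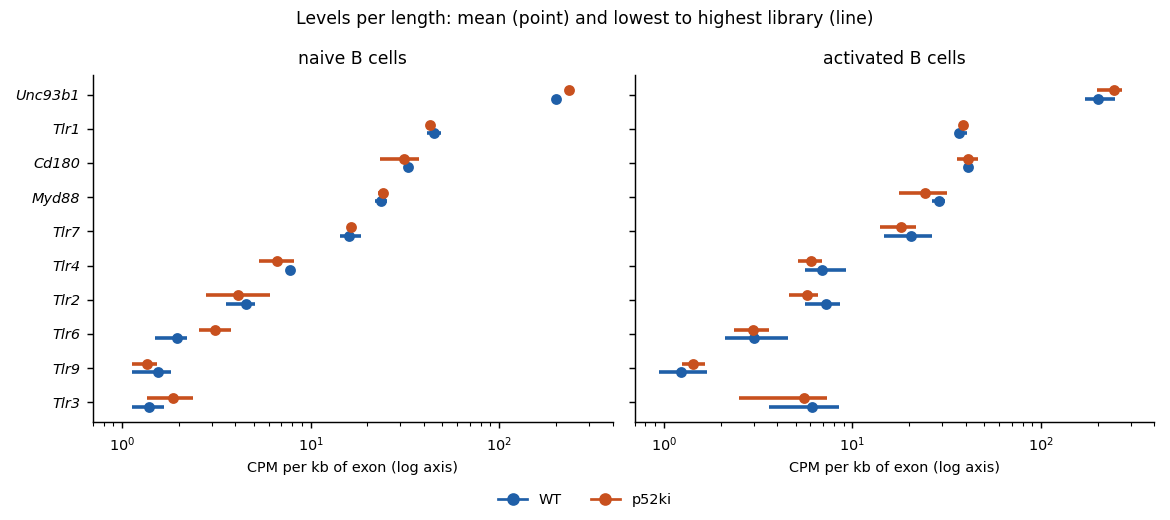
Level per length (x axis, CPM per kb of annotated exon, log axis) of each gene in naive (left) and activated (right) cells, with points for group means and lines from the lowest to the highest library, WT in blue and p52ki in orange. Unc93b1 leads at 199.7 CPM per kb in WT naive cells, and Tlr3 is among the lowest genes in naive cells and level with Tlr2 and Tlr4 in activated cells.

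Tlr1 and Tlr6 are neighbours on chromosome 5 and near-copies over part of their length, which limits how their reads can be assigned. Tlr1 lies at chr5:64924679-64933563 and Tlr6 at chr5:64952031-64960097. Of the 50-base words in Tlr1 transcripts 13.6% also occur in Tlr6, and 12.3% of those of Tlr6 occur in Tlr1. In all, 15.4% of the Tlr1 words also occur in other genes, 158 in number with Tlr6 included. The other members shared at most 0.018% of such words with any other gene. Annotated exons of other genes overlapped 11.3% of the exon length of Myd88, 7.32% of Tlr3 and 4.04% of Cd180, and the strand setting of the counting is not given in the sources used here.

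Between naive and activated cells no receptor was called in either genotype. In WT cells 0 of 10 passed an adjusted p of 0.05, against 0.319% of all genes tested, and in p52ki cells 0 of 10 against 0.117%. No member had an unadjusted p under 0.05 by edgeR in either genotype, DESeq2 called none, and limma voom with quality weights called Tlr3 in each. The largest difference was in Tlr3, the receptor for double-stranded RNA, at chr8:45395665-45411080. Its WT naive libraries held 5.88, 7.004 and 8.74 CPM and its WT activated libraries 18.7, 44.0 and 32.5 CPM. In p52ki the naive libraries held 7.03, 9.84 and 12.4 CPM and the activated libraries 38.0, 35.9 and 13.1 CPM. Every activated library was above every naive library of its genotype.

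The Tlr3 difference between activated and naive cells was 2.14 on the log2 scale in WT (SE 1.16, adjusted p = 1, edgeR quasi-likelihood test, Benjamini-Hochberg adjusted, n = 3 and 3) and 1.57 in p52ki (SE 1.13, adjusted p = 1). It also passed the threshold in both genotypes where the 2 groups were compared alone, a fit that changed the spread, the scaling and the genes tested together. Marker sums of several B cell types differed between the same libraries. Markers of marginal zone and B-1 cells, B cell types known for strong Toll-like receptor responses, were among them. Their 8 genes summed to 1287 to 1447 CPM in WT naive and 2335 to 2731 CPM in WT activated libraries, and to 1521 to 1737 and 2175 to 2500 CPM in p52ki. Within that list Plac8 was at 384 to 549 CPM in WT naive and 879 to 1775 CPM in WT activated libraries, while Cr2 overlapped, at 648 to 754 and 358 to 1071 CPM. The 5 plasma cell markers summed to 324 to 382 CPM in WT naive and 1929 to 8168 CPM in WT activated libraries, and to 309 to 337 and 1635 to 3246 CPM in p52ki. The WT activated sum was mostly Jchain, at 1531 to 7356 CPM against 10.1 to 25.5 CPM in WT naive libraries. Irf4, Sdc1 and Prdm1 overlapped between these WT groups. The naive follicular markers summed to 7172 to 8604 CPM in WT naive and 2330 to 3571 CPM in WT activated libraries, and to 7535 to 8289 and 3080 to 3647 CPM in p52ki. The part of these markers in the Tlr3 difference was not tested.

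Libraries of 5 members did not overlap between naive and activated WT cells, with 4 higher and Tlr1 lower after activation, while 18.8% of all genes did not overlap. Cd180 was one of the 4, at 145, 152 and 149 CPM in naive and 193, 178 and 182 CPM in activated WT cells. CD180 is a surface protein built like TLR4 but without its signalling domain, and its gene lies at chr13:102693558-102739629. Its difference was 0.31 on the log2 scale (SE 0.194, adjusted p = 1 by edgeR). The others were Tlr2, Tlr3 and Myd88. In p52ki cells libraries of 2 members did not overlap, Tlr3 higher and Tlr1 lower after activation, while 18.9% of all genes did not overlap. Tlr2, Cd180 and Myd88 overlapped there.

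**Figure D3:**
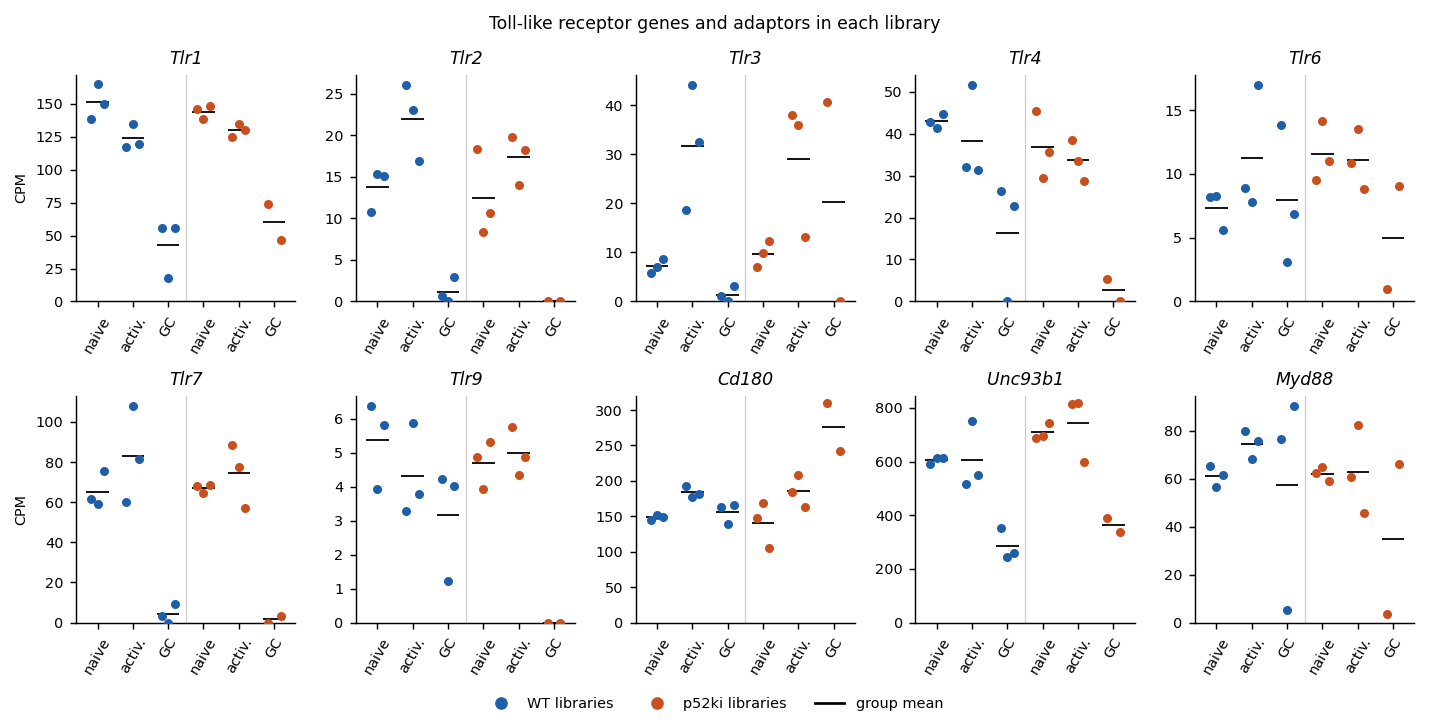
CPM of each of the 10 genes in every library (y axis, its own linear scale per gene), by stage and genotype (x axis), with points for libraries and lines for group means. In GC libraries Tlr2 lies between 0 and 2.93 CPM and Tlr7 between 0 and 9.02 CPM, while Cd180 lies between 139 and 310.1 CPM.

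In WT GC cells 5 of the 10 genes fell below their activated level and none rose. These were Tlr1, Tlr2, Tlr3, Tlr7 and Unc93b1; of all genes tested 13.6% were called, 7.75% lower and 5.8% higher. The median difference of the 10 was -1.15 on the log2 scale and that of all genes tested -0.13. Against naive cells 4 of the 10 fell, all of these but Tlr3, where 15.9% of all genes were called, 7.47% lower and 8.45% higher, with medians of -1.23 and -0.16. Both comparisons use the same WT GC libraries.

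Tlr7, at chrX:167304929-167330558, was the endosomal receptor with the highest activated level and fell close to 0. WT activated libraries held 60.2, 108 and 81.6 CPM, and GC libraries 3.46, 0 and 9.02 CPM, the 0 being in the sparse library 3. The difference was -4.27 on the log2 scale (SE 0.899, adjusted p = 0.00528, edgeR quasi-likelihood test, Benjamini-Hochberg adjusted). All 3 GC libraries were below every activated library, and without library 3 the Tlr7 call held.

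Tlr2, at chr3:83836272-83841767, pairs with TLR1 or TLR6 to bind lipoproteins. It went from 25.99, 23.04 and 16.9 CPM in WT activated libraries to 0.641, 0 and 2.93 CPM in GC libraries, a difference of -4.10 on the log2 scale (SE 0.829, adjusted p = 0.00456 by edgeR). Tlr1 went from 117, 135 and 119 CPM to 55.5, 18.1 and 55.5 CPM, a difference of -1.52 (SE 0.321, adjusted p = 0.00532 by edgeR). The partner gene Tlr6 was not called, with 8.91, 7.83 and 17.0 CPM in activated and 13.8, 3.05 and 6.85 CPM in GC libraries, which overlap. Markers of macrophages and monocytes, cells that also express Tlr2 and Tlr4, summed over 10 genes to 44.0 to 71.7 CPM in naive, 66.3 to 124 CPM in activated and 31.8 to 54.6 CPM in GC libraries of WT. The marginal zone and B-1 sum went from 2335 to 2731 CPM in WT activated to 322 to 424 CPM in WT GC libraries, and the naive follicular sum from 2330 to 3571 CPM to 445 to 675 CPM. The part of these 3 marker sums in the falls of Tlr1, Tlr2, Tlr3, Tlr7 and Unc93b1 was not tested.

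The chaperone gene Unc93b1 also fell. Its WT activated libraries held 518, 751 and 550 CPM and its GC libraries 353, 246 and 258 CPM, and the groups did not overlap. The difference was -1.09 on the log2 scale (SE 0.196, adjusted p = 0.00165 by edgeR). Its WT GC mean was 285 ± 58.6 CPM (SD, n = 3). Tlr3 fell from its activated level to 1.15, 0 and 3.04 CPM, a difference of -4.42 (SE 1.30, adjusted p = 0.0350 by edgeR). That call was lost without WT activated library 3 or 4 or WT GC library 1, and leaving out 1 library at a time gave adjusted p from 0.0471 to 0.0982. It was also lost without the filter on low counts.

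The remaining genes did not pass the test in WT GC cells. Tlr4, the lipopolysaccharide receptor at chr4:66827584-66930284, held 31.99, 51.5 and 31.3 CPM in activated and 26.4, 0 and 22.8 CPM in GC libraries, a difference of -1.21 (SE 1.03, adjusted p = 0.501 by edgeR). Myd88, at chr9:119335934-119341411, held 80.0, 68.3 and 75.6 CPM in activated cells and 76.4, 5.09 and 90.3 CPM in GC cells. Its single low value was in the sparse library 3, and each of the other 2 GC libraries lay above at least 2 of the activated ones. Tlr9, at chr9:106222598-106226883, held 3.27, 5.87 and 3.79 CPM in activated and 4.23, 1.22 and 4.02 CPM in GC cells. Cd180 held 163, 139 and 166 CPM in GC cells, a difference of -0.24 from activated cells (SE 0.194, adjusted p = 0.480 by edgeR).

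When the 2 WT groups were compared alone none of the 10 passed, with adjusted p from 0.0652 for Unc93b1 to 0.104 for Tlr2 among the 5 called genes. That fit had its own spread, scaling and set of 13208 tested genes, and which of these ended the calls was not tested. The direction of these 5 genes held in every alternative tried.

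In p52ki GC cells Tlr1, Tlr2, Tlr7, Tlr9 and Unc93b1 fell below their activated level. These were 5 of 10, none rose, and 25.6% of all genes were called, 19.3% lower and 6.34% higher. The median difference was -1.11 on the log2 scale, also with Tlr2 and Tlr9 set at their bounds, and -0.41 over all genes tested. Against p52ki naive cells the same 5 were lower and Cd180 was higher, where 29.1% of all genes were called, 20.4% lower and 8.68% higher. The share of all genes called lower was larger here than in WT. Both p52ki GC libraries and WT GC library 3 were sparse, and the part of this in that share was not tested.

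Tlr7 had 88.7, 77.6 and 57.1 CPM in p52ki activated libraries and 0 and 3.45 CPM in p52ki GC libraries, a difference of -5.32 on the log2 scale (SE 1.16, adjusted p = 0.00546 by edgeR). Tlr2 had 19.8, 13.96 and 18.2 CPM in activated libraries and no count in either GC library, which puts it at least 59-fold lower (adjusted p = 0.00138 by edgeR). That bound sets 3 counts summed over the 2 GC libraries as the floor and covers counting error only. The macrophage and monocyte sum was 29.6 CPM in one of these GC libraries and 115 CPM in the other. Of its 10 genes Lyz2, Csf1r, Itgam and Fcgr1 had no count in either, while library 5 held Cd68 at 37.9, Vcam1 at 36.4 and C1qb at 30.7 CPM, each above its value in every other library, and their part in the values of that library was not tested.

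Unc93b1 had 815, 817 and 598 CPM in p52ki activated and 390 and 336 CPM in p52ki GC libraries, a difference of -1.04 (SE 0.224, adjusted p = 0.00502 by edgeR). Tlr1 had 125, 135 and 130 CPM in activated and 74.4 and 46.6 CPM in GC libraries, a difference of -1.11 (SE 0.364, adjusted p = 0.0375 by edgeR). The Tlr1 call was lost without any 1 of the p52ki activated libraries or without p52ki GC library 5. With detected genes as a covariate, these differences became 0.09 for Tlr1, -0.58 for Tlr7 and -0.75 for Unc93b1 and were not called, and with limma voom and quality weights none of the 10 was called.

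**Figure D4:**
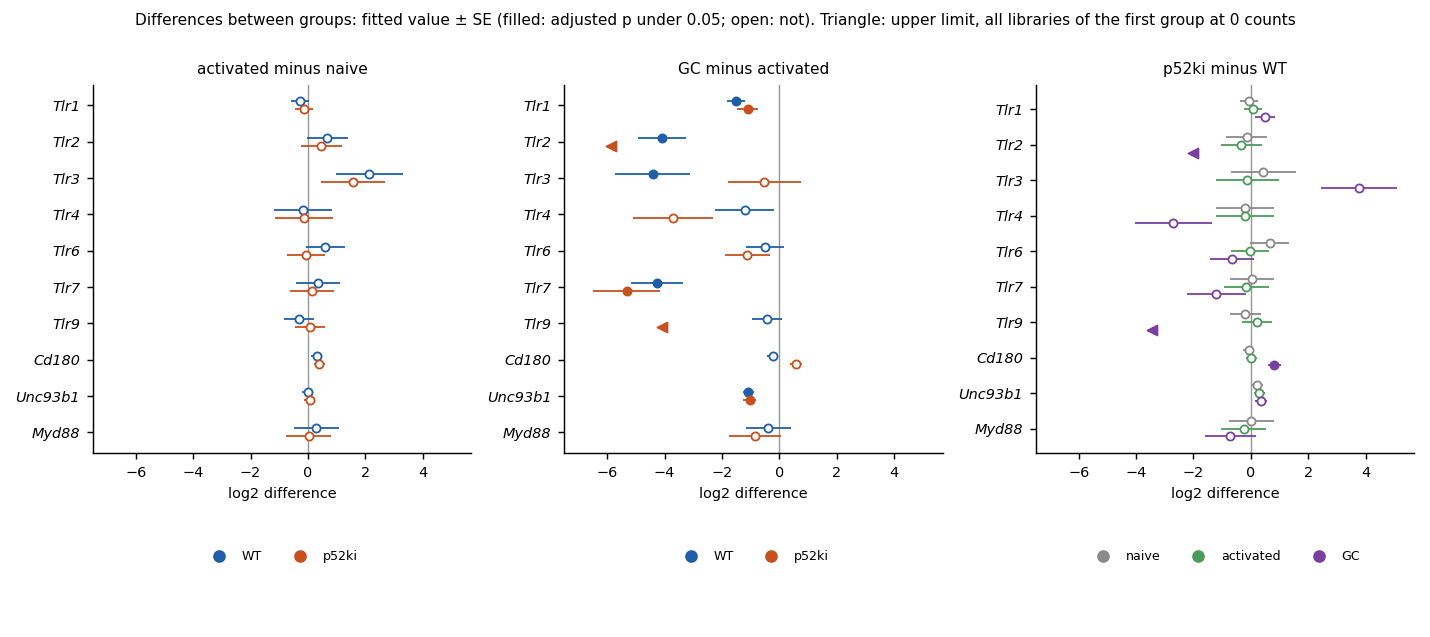
Differences on the log2 scale (x axis) of each gene for activated minus naive cells, GC minus activated cells and p52ki minus WT, by genotype or stage, with bars of 1 SE from the edgeR model. Filled points passed an adjusted p of 0.05, open points did not, and triangles stand at the upper limit for genes with no count in the p52ki GC group. That limit takes the mean of the other group as exact. Tlr2 and Tlr7 lie below 0 for GC minus activated cells in both genotypes, and Cd180 is higher in p52ki GC than in WT GC cells.

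No receptor was called between genotypes in naive or activated cells. In naive cells 0 of 10 were called, as were 0% of all genes; 0 members and 0.521% of all genes had an unadjusted p under 0.05, and neither DESeq2 nor limma voom called a member. The differences ran from -0.22 for Tlr4 to 0.65 for Tlr6 on the log2 scale. In activated cells 0 of 10 were called against 0.013% of all genes, 0 members and 0.873% of all genes had an unadjusted p under 0.05, and DESeq2 and limma voom called no member. The differences there ran from -0.34 for Tlr2 to 0.29 for Unc93b1. Naive libraries did not overlap for 2 members, Tlr6 and Unc93b1, both higher in p52ki, while 10.7% of all genes did not overlap. Unc93b1 had 590, 612 and 613 CPM in WT and 688, 695 and 743 CPM in p52ki naive cells. That difference was 0.23 (SE 0.193, adjusted p = 1 by edgeR).

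In GC cells 3 of 10 genes differed between genotypes, as did 16% of all genes. Cd180 was higher in p52ki, where 3.75% of all genes were called higher, and Tlr9 and Tlr2 were lower, where 12.2% were called lower. The median of the 10 was -0.68 on the log2 scale, also with Tlr2 and Tlr9 at their bounds, and that of all genes tested -0.32. WT libraries are numbered 1 to 12 in the titles and p52ki libraries 19 to 30, so a batch in that order and genotype cannot be told apart.

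Cd180 had 163, 139 and 166 CPM in WT GC and 310.1 and 241.8 CPM in p52ki GC libraries, and the groups did not overlap. The difference was 0.82 on the log2 scale, 1.77-fold (SE 0.214, adjusted p = 0.0191 by edgeR). The call was lost without p52ki GC library 2, where adjusted p was 0.113. It was also lost without the filter on low counts, with limma voom and quality weights and when the GC groups were compared alone. Within p52ki, GC libraries were above activated libraries, at 185, 209 and 163 CPM, by 0.57 (SE 0.214, adjusted p = 0.0602 by edgeR) and above naive libraries by 0.97 (SE 0.213, adjusted p = 0.00447 by edgeR). The change from activated to GC cells differed between genotypes by 0.81 (SE 0.289, adjusted p = 0.102 by edgeR), which missed the threshold.

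Tlr9 had 4.23, 1.22 and 4.02 CPM in WT GC libraries and no count in either p52ki GC library. It was called lower in p52ki (adjusted p = 0.00141 by edgeR). With 3 counts over the 2 libraries as the floor, the WT GC mean lay 10.8-fold above that floor. That bound takes the WT GC mean as exact and is no lower limit over libraries, since WT GC library 3 held 1.22 CPM. In p52ki naive and activated libraries Tlr9 had 3.94 to 5.77 CPM, so the 0 was seen only in the GC libraries of that genotype. The change from activated to GC cells differed between genotypes for Tlr9 (adjusted p = 0.00457 by edgeR), and it was the only member of which this was so, where 5.95% of all genes were called. The same held for the change from naive to GC cells, where 5.76% were called, while no gene was called for the change from naive to activated cells. The sparse WT GC library 3 did hold Tlr9 counts, yet 31.7% of genes at this level had no count in both p52ki GC libraries, and that share's part in the result was not tested.

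Tlr2 was called lower in p52ki GC cells (adjusted p = 0.0381 by edgeR), from libraries that overlapped, since WT GC library 3 had no count either. Its bound of 4.06-fold sets the WT GC mean over the floor of 3 counts and takes that mean as exact. WT GC libraries held 5, 0 and 27 Tlr2 counts, so it is no lower limit over libraries. The call was lost without WT GC library 4 or either p52ki GC library. Tlr3 was not called (adjusted p = 0.0652 by edgeR), and its p52ki libraries lay at 40.7 and 0 CPM. Without p52ki GC library 2 its difference turned from 3.77 to -6.62 on the log2 scale, so its direction rests on 1 library. Tlr4, with 5.33 and 0 CPM in p52ki GC libraries, and Myd88, with 3.63 and 66.3 CPM, overlapped with the WT GC libraries and were not called. None of the 10 passed when the 2 GC groups were compared alone or with limma voom and quality weights.

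The partners of the leucine-rich receptors were followed as a list of 14 co-receptors, chaperones and endosomal proteins, chosen like the other lists with earlier results of these data known. In WT GC against activated cells 4 of the 14 fell and none rose, where 7.75% of all genes were called lower and 5.8% higher, with a median of -0.85 beside -0.13 over all genes. Ly86 encodes MD-1, the secreted partner that CD180 needs at the surface. It had 755, 458 and 610 CPM in WT activated and 191, 196 and 281 CPM in WT GC libraries, a difference of -1.45 (SE 0.221, adjusted p = 0.000509 by edgeR). The other 3 act in endosomes. Ctss, encoding cathepsin S, changed by -1.45, Pld4, a nuclease that limits TLR9 and TLR7 ligands, by -1.42, and Ctsb, encoding cathepsin B, by -0.96, with adjusted p from 0.000188 to 0.00712 by edgeR. The Pld4 and Ctsb calls were lost when the WT activated and GC groups were compared alone.

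Between genotypes in GC cells 2 of the 14 were higher in p52ki and 1 was lower, where 3.75% of all genes were called higher and 12.2% lower, with a median of -0.26, or 0 with genes that had no count in a group at their bounds, beside -0.32 over all genes. Ly86 had 738 and 708 CPM in p52ki GC libraries, above all WT GC libraries, and the difference was 1.70 on the log2 scale (SE 0.239, adjusted p = 0.000363 by edgeR). These are the libraries in which its partner Cd180 was higher. Its change from activated to GC cells differed between genotypes by 1.82 (SE 0.323, adjusted p = 0.00416 by edgeR). Ctss was higher by 1.09 (adjusted p = 0.00346 by edgeR), with 569 and 719 CPM against 258 to 337 CPM. Pld3, a nuclease related to Pld4, was lower by 1.55 on the log2 scale, at 10.2 and 18.9 CPM against 39.9 to 46.6 CPM (adjusted p = 0.00489 by edgeR). Ly96 encodes MD-2, the partner of TLR4, and was not called, with 32.2 and 60.04 CPM in p52ki GC and 14.5 to 55.6 CPM in WT GC libraries.

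Ly86 and Cd180 were higher in p52ki than in WT GC cells, as were the naive follicular and the marginal zone and B-1 sums. The latter was 887 and 1323 CPM in p52ki GC against 322 to 424 CPM in WT GC libraries. From p52ki activated to GC cells Cd180 and Ly86 were higher in GC libraries, though neither rise was called by edgeR. Both sums were lower. Ly86 was at 480 to 614 CPM in p52ki activated libraries. The naive follicular sum was 3080 to 3647 CPM there and the marginal zone and B-1 sum 2175 to 2500 CPM. Within the marginal zone and B-1 list Plac8, Cr2 and Cd9 were higher in both p52ki GC libraries than in any WT GC library. Plac8 had 715 and 300 CPM in p52ki GC against 17.6 to 129 CPM in WT GC libraries. Cd1d1, S1pr3, Dtx1, Cd5 and Mzb1 overlapped. The GC marker sum was lower in p52ki GC than in WT GC libraries, though Bcl6 and Fas overlapped. The part of these markers in the higher Cd180 and Ly86 was not tested. The Ly86, Ctss and Pld3 calls between genotypes held without each single GC library and were lost with limma voom and quality weights and when the GC groups were compared alone.

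**Figure D5:**
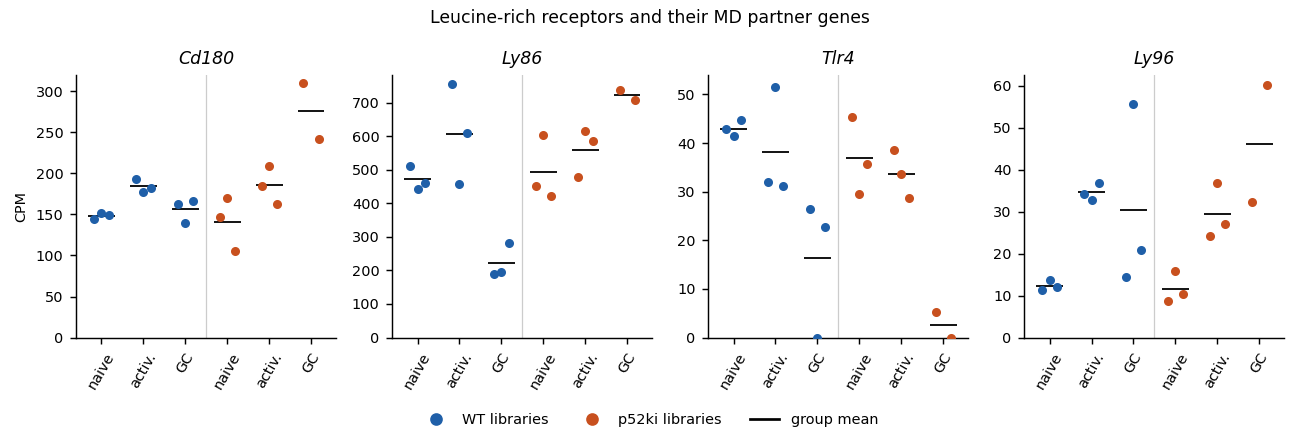
CPM (y axis, linear) of Cd180 and its partner gene Ly86, and of Tlr4 and its partner gene Ly96, in every library by stage, WT in blue and p52ki in orange, with lines for group means. Ly86 falls to 191 to 281 CPM in WT GC libraries and lies at 708 and 738 CPM in p52ki GC libraries.

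Of 18 adaptors and kinases downstream of the receptors, 1 rose and 1 fell between WT activated and GC cells, where 5.8% of all genes were called higher and 7.75% lower, with a median of -0.47 beside -0.13. The called shares were near those of all genes. Ticam2, an adaptor of TLR4, rose from 2.00, 2.61 and 6.60 CPM to 15.5, 24.2 and 18.04 CPM, a difference of 2.35 (SE 0.562, adjusted p = 0.0112 by edgeR). Its exons overlap those of Tmed7 over 14.5% of their length. Irak2, a kinase of the MYD88 complex, fell by 2.54 on the log2 scale, from 45.8, 69.9 and 51.9 CPM to 14.6, 0.204 and 13.5 CPM (adjusted p = 0.0239 by edgeR). The Ticam2 call was lost without WT activated library 3 and the Irak2 call without WT activated library 3 or 4. Both were lost when the 2 WT groups were compared alone, and the Ticam2 call also without the filter on low counts.

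Between genotypes in GC cells 2 of these 18 were higher in p52ki and 2 lower, where 3.75% of all genes were called higher and 12.2% lower, with a median of -0.23 beside -0.32 over all genes. The share called lower and the median were near those of all genes. Tab2, which links ubiquitin chains to the kinase TAK1, had 148 and 122 CPM in p52ki GC and 30.5 to 48.5 CPM in WT GC libraries, a difference of 1.76 (SE 0.364, adjusted p = 0.00608 by edgeR). Traf3, known to restrain the alternative NF-κB pathway, had 31.7 and 67.9 CPM in p52ki GC and 3.87 to 18.7 CPM in WT GC libraries, a difference of 1.95 (adjusted p = 0.0237 by edgeR), a call lost without p52ki GC library 5. Tirap, the adaptor that brings MYD88 to TLR2 and TLR4, was lower by 2.05 on the log2 scale, at 9.45 and 10.01 CPM against 52.5, 12.6 and 55.5 CPM (adjusted p = 0.0278 by edgeR). That call was lost without WT GC library 1 or 4 or p52ki GC library 2. Ikbke, a kinase gene, was called lower (adjusted p = 0.0438 by edgeR) from overlapping libraries, at 0 and 0.164 CPM against 6.54, 0 and 3.26 CPM, and lost the call without WT GC library 1 or 4 or either p52ki GC library. The calls of Tab2, Traf3, Tirap and Ikbke were all lost with limma voom and quality weights and when the GC groups were compared alone.

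Few of the remaining pathway genes were called. Of 7 negative regulators only Irak3, a brake on MYD88 signalling, was called between WT activated and GC cells. Of all genes 7.75% were called lower there and 5.8% higher. Irak3 fell from 37.5, 66.3 and 66.6 CPM to 7.44, 0 and 5.87 CPM. The difference was -3.63 on the log2 scale (SE 0.983, adjusted p = 0.0231 by edgeR), and the median of the list was -0.33 beside -0.13 over all genes. That call was lost without WT activated library 3 or 4 or WT GC library 4, without the filter on low counts and when the WT groups were compared alone. Of the interferon regulatory factor genes Irf3, Irf5 and Irf7 none was called in any contrast. Among 5 further receptor genes, Tlr5 had no count in any library, Tlr8 and Tlr11 did not pass the filter on low counts, and Tlr12 and Tlr13 reached at most 4.08 and 5.45 CPM with no call.

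Across the 17 libraries the genes with the most similar pattern were sought among 9192 genes that averaged at least 5 CPM, by Pearson's r of log2(CPM + 1). For Tlr1 it was Birc3, at r = 0.986, and for Tlr7 it was P2ry10b, at 0.985, followed by Ifit3, at 0.981. Unc93b1 was most like Tapbp, at 0.945. Cd180 was most like Nudt14, at 0.935, and the chemokine receptor gene Cxcr3 was the third, at 0.892. Tlr4 was most like D11Wsu47e, at 0.993, and Myd88 most like Lin52, at 0.983. Among the members themselves Tlr2 and Tlr7 were closest, at r = 0.96, and Cd180 and Tlr9 were the most opposed, at r = -0.67. All of these points share the libraries, their depth and their number of detected genes, and the values are descriptions without a test.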

How the data were processed

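RNA was measured in 17 libraries of sorted spleen B cells. Per the labels' protocols, RNA was isolated with a kit for small samples, cDNA was amplified with a SMARTSeq protocol from very low input, and libraries were sequenced as read pairs; no molecular identifiers are named, so floors hold for counting error alone. The deposited values are whole-number counts per gene. Per the submitters' processing notes, the authors used HISAT2 2.1.0, featureCounts (Subread 1.6.2) and SAMtools 1.8 with build GRCm38. The sources used here do not name the strand setting, the annotation or how reads with several matches were treated.

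Symbols, positions and exon lengths came from GENCODE mouse release M21 on GRCm38, where all 55536 identifiers were found. After filterByExpr and TMM scaling, the quasi-likelihood test of edgeR 4.0.16 (R 4.3.3, robust glmQLFit, glmQLFTest) was run in 1 model over 17 libraries and 6 groups; p-values were adjusted by Benjamini-Hochberg over all 15352 genes of a contrast, with calls at values under 0.05. Such p-values reflect only the spread among the samples, which may be technical. No pair of libraries of 1 group agreed within counting noise, so each counted once. Alternatives used RLE size factors, DESeq2 1.42.0, limma 3.58.1 voom with quality weights, no filter, no immunoglobulin genes, detected genes as a covariate, a replicate block, groups alone, and single libraries left out. The edgeR fit was tested on simulated counts, with large changes placed in genes of higher level and no sparse libraries. The other fits, and changes in genes as low as Tlr9, were not covered.

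The genes, the pathway and marker lists and the tests were chosen with earlier results of these data known. Every receptor gene was described; of each pathway list up to 4 genes with the smallest p in a contrast were named, with Ly96 added as the partner of Tlr4. The most similar gene of Tlr2 and the summed level of the B cell markers are not reported here.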

Additional observations from a re-analysis of the deposited data

Results flagged for a closer look

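The change of Tlr9 from activated to GC cells differed between genotypes, with a fitted difference of -7.87 on the log2 scale (SE 1.39, adjusted p = 0.00457, edgeR quasi-likelihood test, Benjamini-Hochberg adjusted). From naive to GC cells the fitted difference was -7.48 (SE 1.40, adjusted p = 0.00715 by edgeR). Both rest on the p52ki GC libraries, 2 of 2 of which had no Tlr9 count, and share them, so the size of the fitted values depends on the prior count of the model and is no bound. WT GC libraries held 76 Tlr9 counts in all, and p52ki activated libraries 139. With limma voom and quality weights neither difference was called, and the second was also lost with the replicate block. Genes at the level of Tlr9 often had no count in the sparse GC libraries, and the part of this in the result was not tested.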

How the results depend on the processing

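The counts of called members differed between fits and with the sparse GC libraries left out; the cause was not tested. Between genotypes in GC cells the 3 calls became 0 with limma voom and quality weights and 0 with the groups alone, and 2 to 6 when 1 library was left out, with 6 without p52ki GC library 5. With the groups alone, the WT calls became 0 from 5 for GC against activated and 2 from 4 for GC against naive cells, and the p52ki calls 3 from 5 for GC against activated cells. With limma voom the p52ki GC calls became 0 from 5 and 0 from 6, and with detected genes as a covariate 2 and 3. Activated against naive cells gave 1 call with limma voom and 1 with the groups alone, in each genotype. Of the differences between genotypes in a stage change, 1 member was called, and 2 with RLE, 3 with DESeq2, 0 with limma voom, 3 with the covariate and 1 to 5 when 1 library was left out (3 without WT GC library 3, 5 without p52ki GC library 5). With RLE scaling the median over genes shifted by -0.1 in GC against activated WT cells and changed no direction of a member there.

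Directions turned for some values that were not called, and for Tlr1 and Ikbke. With limma voom Tlr3 became -2.08 between genotypes in GC cells, -4.08 for GC against naive p52ki cells, and -2.01 and -2.25 for the difference between genotypes of the change to GC from activated and from naive cells. Leaving out 1 library gave -6.62 to 4.96, -9.31 to 2.04, -6.49 to 5.09 and -7.06 to 4.52 for these 4 values, turned without p52ki GC library 2. The covariate gave 1.32 for Tlr4 and 2.81 for Tlr7 between genotypes in GC cells. For GC against activated p52ki cells it gave 0.09 for Tlr1, 0.87 for Tlr4 and 0.45 for Tlr6, and for GC against naive p52ki cells 0.48 for Tlr4 and 0.28 for Tlr6. For the difference between genotypes it gave 2.01 for Tlr4 and 3.57 for Tlr7 from activated cells, and 1.52 and 2.72 from naive cells. With WT GC library 3 as the only WT GC library, the difference between genotypes was 7.29 for Tlr4, 6.90 for Tlr7 and 2.81 for Ikbke; Tlr2 could not be fitted there, since no library had a count. The difference between genotypes of the Tlr7 change from activated to GC cells ran from -7.97 to 0.15 when 1 library was left out, turned without WT GC library 4. The pathway genes were put through the same alternatives after the data had been seen.

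The labels do not say that a replicate number marks a shared animal, and not every same-numbered pair of libraries deviated together, so the libraries were treated as unpaired. Deviations from the group means correlated at -0.23 to 0.28 over 16 same-numbered pairs, with 3 over 0.1, and at -0.23 to 0.32 over 32 other pairs; the own number gave the highest correlation in 18 of 32 cases, each against 2 or 3 libraries. The 6 same-numbered naive and activated pairs lay at 0.08 to 0.28, which is a hint of shared number from the data and not from the design. With the replicate block the calls were 2 between genotypes in GC cells, 4 and 4 for GC against activated and naive WT cells, 5 and 5 for p52ki, 1 for the differences between genotypes and 0 elsewhere; Tlr3 became -0.17 for GC against naive p52ki cells. The calls that the replicate block ended were those of Tlr2, Tirap and Ikbke between genotypes in GC cells, of Tlr3, Irak2 and Irak3 in WT and of Tlr1 in p52ki for GC against activated cells, of Tlr1 for GC against naive p52ki cells, of Pld3 and Ctss for the difference between genotypes from activated cells, and of Tlr9 for that from naive cells. Depth limits the low receptors most: 3 counts over both p52ki GC libraries correspond to 0.293 CPM.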
